A study of Homo sapiens with 4 samples.

Results

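Genes that govern the uptake, activation and breakdown of cytarabine, together with the DNA topoisomerase II genes, were examined in MOLM13 cells that overexpressed BTG2. MOLM13 is a human acute myeloid leukaemia cell line. The members were picked by name, as SLC29A1, DCK, NME1, CDA, NT5C2, SAMHD1, RRM1, RRM2, TOP2A and TOP2B, and 9 of these 10 genes had a row among the 11597 genes of the authors' deposited table, whereas CDA was not analysed here. Cells were transduced by lentivirus with a BTG2 cDNA (2 libraries) or with the empty vector (2 libraries) and collected 3 days later. In both groups the vector carried an EF1α promoter, puromycin resistance and ZsGreen, the labels name no drug selection, and no cytarabine or topoisomerase poison is named for either group. All libraries came from 1 cell line, and the labels do not say whether replicates were separate cultures, so the spread behind the p-values may be technical.

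Cytarabine is a deoxycytidine analogue used to treat acute myeloid leukaemia. It enters cells through a nucleoside transporter, is phosphorylated stepwise to a triphosphate that the replicative polymerases incorporate, and is lost through deamination, dephosphorylation or hydrolysis of the triphosphate. Ribonucleotide reductase supplies the natural deoxynucleotides that compete with it. Topoisomerase II passes one DNA duplex through a break in another, and its 2 human isoforms are the targets of anthracyclines and etoposide, which hold that break open.

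Of the 9 genes measured, TOP2B and TOP2A were lower with BTG2, NME1 was higher, and the genes for the transporter, the activating kinase, the nucleotidase, the triphosphohydrolase and both reductase subunits did not pass the test. A gene was called at an adjusted p under 0.05 in the authors' deposited table, which gave 2 members lower and 1 higher. Over all genes of that table the same rule called 8.11%, of which 4.47% were lower and 3.64% higher. Members had mean normalized counts from 463 to 1428 and standard errors of the log2 fold change from 0.07 to 0.11. Among the 1673 genes in that range of mean count 16.1% were called, 9.98% lower and 6.1% higher. The members' log2 fold changes had a median of -0.19 and ran from -0.35 to 0.36, with 6 negative and 3 positive. Genes of the same range had a median of -0.05, and 1038 of 1673 were negative. In the authors' test 7 of the 9 members had an unadjusted p under 0.05. The same held for 520 of the 1673 genes of that range and for 2036 of all 11597 genes. With 9 members picked by name, the counts are given as a description. Whether these genes differ from others of like abundance was not tested.

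**Figure D1:**
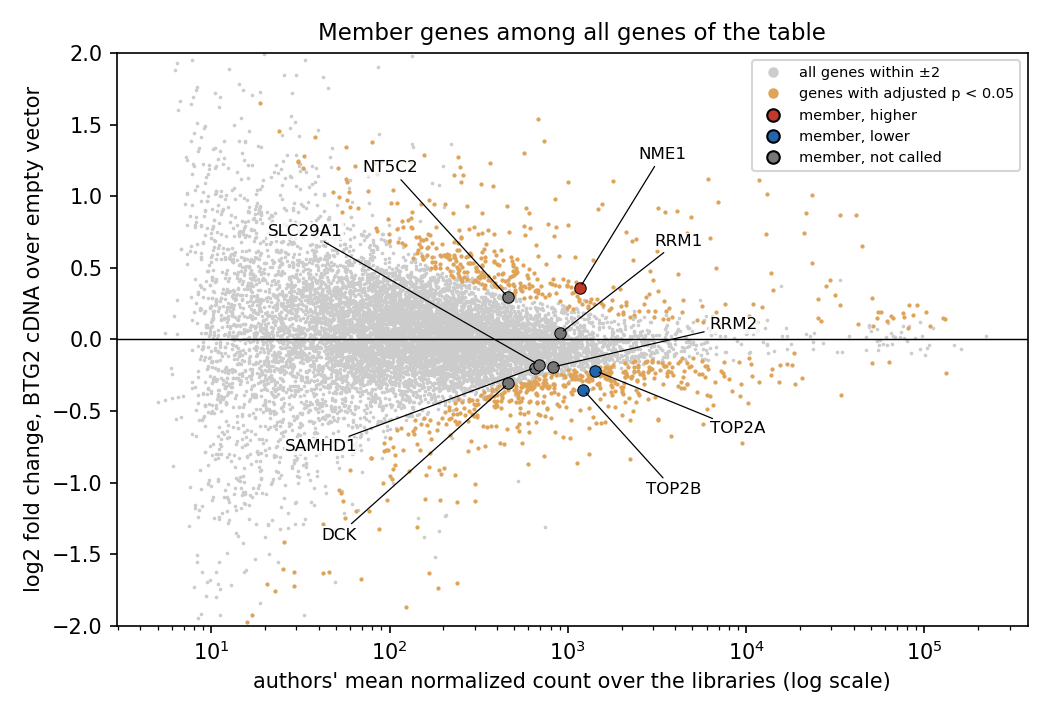
Each grey point is a gene of the authors' deposited table, by its mean normalized count (horizontal, log scale) and its log2 fold change of BTG2 cDNA over empty vector (vertical, cut to values within 2 of zero); orange points had an adjusted p under 0.05. The 9 members, marked by name, lie at mean counts from 463 to 1428 and at log2 fold changes from -0.35 to 0.36.

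Each gene is described by the group means that its deposited mean and fold change imply, which assumes that the deposited mean weights all 4 libraries equally and that the fold change is the ratio of the group means. Values of single libraries were not analysed here, so whether the groups overlapped is unknown. In bulk RNA, fewer cells with a transcript and less of it per cell cannot be told apart. Errors are the authors' standard errors (SE) of the log2 fold change, and intervals are 95% normal intervals from them.

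The transporter and the first kinase both had negative fold changes that missed the threshold. SLC29A1, the equilibrative transporter that carries cytarabine across the plasma membrane, lies on chromosome 6 (44219505 to 44234151, plus strand; this and all gene positions are from GENCODE release 29 on hg38). Its implied means were 646 normalized counts with BTG2 and 731 with the empty vector, a log2 fold change of -0.18 (SE 0.09, adjusted p = 0.311 by the authors' deposited table). The interval allowed anything from 22.2% lower to 0.427% higher. DCK, the deoxycytidine kinase that adds the first and rate-limiting phosphate, lies on chromosome 4 (70992538 to 71030914, plus strand). It had implied means of 415 with BTG2 and 514 with the empty vector. The log2 fold change by the authors' deposited table was -0.31 (SE 0.11, adjusted p = 0.0571), or 19.2% lower with an interval from 30.3% to 6.30% lower. Adjusting over the abundant genes alone (mean count at least the median, 151) turned this into a call, at an adjusted p of 0.0341 (0.0341 to 1 over the alternatives, from p-values of the authors' deposited table). MOB1B overlaps DCK on the same strand over 29912 bases and had the opposite sign, with a log2 fold change of 0.34 (SE 0.18, adjusted p = 0.306) by the authors' deposited table.

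NME1 rose with BTG2. It codes for a nucleoside diphosphate kinase, the enzyme class that makes triphosphates from diphosphates, and lies on chromosome 17 (51153536 to 51162428, plus strand). Implied means were 1312 normalized counts with BTG2 and 1022 with the empty vector, 1.28-fold higher with BTG2 with an interval from 16.4% to 41.4% higher. The log2 fold change of 0.36 (SE 0.07) had an adjusted p of 2.41e-05 by the authors' deposited table and rank 243 by p among 11597 genes. Across the alternatives the adjusted p, from values of the authors' deposited table, ran from 3.93e-06 to 0.00587.

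The paralogue NME2, the next gene on the same strand (51165435 to 51171747), did not pass the test. Its implied means were 10054 with BTG2 and 10741 with the empty vector, and its log2 fold change was -0.10 (SE 0.04, adjusted p = 0.183 by the authors' deposited table). The readthrough gene NME1-NME2, whose transcripts run from one into the other, had implied means of 99.4 with BTG2 and 129.9 with the empty vector and a log2 fold change of -0.38 (SE 0.21, adjusted p = 0.337 by the authors' deposited table). Neither interval overlapped that of NME1, and these differences were not tested. Summed over the 3 genes, the implied means were 11465 with BTG2 and 11893 with the empty vector, a log2 ratio of -0.053 with no error available. Most of these counts were those of NME2, so the sum largely follows NME2 and does not bear on the sign of NME1 alone. The implied gain of NME1 was 289 normalized counts and the implied loss of NME2 was larger, at a BTG2 minus empty vector difference of -687. Whether reads were moved between these genes by the assignment was not tested.

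How alike the paralogues are bears on how reads are assigned, so the most similar stretch of their coding sequences is shown. Over 456 coding bases, 369 (80.9%) were identical, and the longest identical run was 23 bases. The window of 150 bases with the fewest differences, at coding bases 190 to 339 of both genes in GENCODE transcripts, held 18 differences, which are printed in capitals.
NME1: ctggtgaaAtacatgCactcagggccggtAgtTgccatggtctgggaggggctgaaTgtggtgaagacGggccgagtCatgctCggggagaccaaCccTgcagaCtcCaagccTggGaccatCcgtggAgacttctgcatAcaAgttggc
NME2: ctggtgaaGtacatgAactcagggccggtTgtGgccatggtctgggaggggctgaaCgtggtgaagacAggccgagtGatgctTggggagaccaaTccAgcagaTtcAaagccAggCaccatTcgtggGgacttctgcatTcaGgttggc
A fragment of 150 bases, the read length given in the labels' protocols, that falls wholly within the aligned coding part therefore spans from 18 to 38 differences. In the readthrough, by contrast, bases of both genes are shared. The sources used here do not settle whether reads of that length gave the values. Parts outside the coding sequences were not compared, and how reads were assigned was not tested.

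Genes that remove cytarabine nucleotides had fold changes of both signs, and 0 of the 2 measured passed the test. Both had an unadjusted p under 0.05 in the authors' deposited table, as did 2036 of all 11597 genes. NT5C2 encodes a cytosolic nucleotidase that dephosphorylates nucleoside monophosphates, and lies on chromosome 10 (103088017 to 103193306, minus strand). Implied means were 510 normalized counts with BTG2 and 416 with the empty vector. That is 22.5% higher with BTG2, with an interval from 5.51% to 42.2% higher, and a log2 fold change of 0.29 (SE 0.11, adjusted p = 0.0808 by the authors' deposited table). It became a call when p-values of the authors' deposited table were adjusted over the abundant genes alone (adjusted p = 0.0488) or when fold changes were recentred on the median abundant gene (0.0467), within a range of 0.0467 to 1 over the alternatives. CNNM2 overlaps its end on the opposite strand over 2205 bases, at a mean count of 33.7 and a log2 fold change of 0.41 (SE 0.45, adjusted p = 0.773) by the authors' deposited table.

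SAMHD1, the dNTP triphosphohydrolase that also hydrolyses cytarabine triphosphate, lies on chromosome 20 (36889773 to 36951901, minus strand). Its implied means were 613 normalized counts with BTG2 and 702 with the empty vector. The log2 fold change was -0.20 (SE 0.09, adjusted p = 0.193 by the authors' deposited table), with an interval from -0.37 to -0.02 on the log2 scale. CDA, the cytidine deaminase that converts cytarabine to inactive uracil arabinoside, was not analysed here.

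The subunits of ribonucleotide reductase did not pass the test, and the larger fold change was that of the small subunit. RRM1, the catalytic large subunit, lies on chromosome 11 (4094707 to 4138876, plus strand) and had implied means of 920 normalized counts with BTG2 and 894 with the empty vector. With a log2 fold change of 0.04 (SE 0.08, adjusted p = 0.895 by the authors' deposited table), its interval ran from 7.30% lower to 14.3% higher. RRM2, the radical-bearing small subunit made mainly in S phase, lies on chromosome 2 (10120698 to 10131419, plus strand) and had implied means of 772 with BTG2 and 882 with the empty vector. Its log2 fold change was -0.19 (SE 0.08, adjusted p = 0.133 by the authors' deposited table), an interval from 21.5% to 2.48% lower. The RRM2 and RRM1 intervals overlapped, and the difference of -0.23 between their log2 fold changes was not tested. RRM2B, the p53-inducible small subunit, stood at -0.31 (SE 0.25, adjusted p = 0.617) by the authors' deposited table. The pseudogene RRM2P3 had a mean count of 8.41 and RRM2 itself one of 827 in the authors' deposited table.

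Both topoisomerase II genes fell with BTG2. TOP2B, the isoform present throughout the cell cycle and in resting cells, lies on chromosome 3 (25597905 to 25664907, minus strand). Its implied means were 1074 normalized counts with BTG2 and 1372 with the empty vector, 21.7% lower with an interval from 29.1% to 13.6% lower. The log2 fold change of -0.35 (SE 0.07) had an adjusted p of 4.67e-05 by the authors' deposited table and rank 267 by p, and over the alternatives the adjusted p from that table's values ran from 2.51e-05 to 0.0125. TOP2A, the isoform that peaks in G2 and mitosis, lies on chromosome 17 (40388516 to 40417950, minus strand). It had implied means of 1319 with BTG2 and 1536 with the empty vector, 14.1% lower with an interval from 21.6% to 5.97% lower.

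The TOP2A log2 fold change was -0.22 (SE 0.07, adjusted p = 0.0167 by the authors' deposited table, rank 697 by p). That call was lost when the test scores of the authors' deposited table were divided by their central spread of 1.25 (adjusted p = 0.140, with a range of 0.00970 to 1 over the alternatives). The isoforms' intervals overlapped, and the TOP2A minus TOP2B difference of 0.13 in log2 fold change was not tested. The longest identical run of their coding sequences was 22 bases. Of 10 proliferation markers, 4 fell and 1 rose, with a median log2 fold change of -0.17. Beside this, 8.11% of all genes and 16.1% of genes in the members' range of mean count were called. The markers' part in the TOP2A value was not tested. Those that passed in the authors' deposited table were CCNE2 (-0.52), MCM2 (-0.34), CCNA2 (-0.30) and CDK1 (-0.28), all lower, and MKI67 (0.43), higher.

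Since the topoisomerase II genes were the members that fell, the 250 bases before their transcription starts are shown, from RefSeq on GRCh38.p14, 5′ to 3′ on the minus strand, for TOP2A at chr17:40417897-40418146 and for TOP2B at chr3:25664908-25665157. Capitals mark the CCAAT box, the letters CCAAT or their reverse complement ATTGG, a pentamer that the factor NF-Y is known to bind. For genes with several RefSeq starts, the one nearest the GENCODE gene start was taken.
TOP2A: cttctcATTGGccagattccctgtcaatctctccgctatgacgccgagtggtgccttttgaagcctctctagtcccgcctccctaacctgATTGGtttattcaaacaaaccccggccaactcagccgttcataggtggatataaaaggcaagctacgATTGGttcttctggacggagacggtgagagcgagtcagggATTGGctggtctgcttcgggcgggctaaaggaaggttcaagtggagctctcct
TOP2B: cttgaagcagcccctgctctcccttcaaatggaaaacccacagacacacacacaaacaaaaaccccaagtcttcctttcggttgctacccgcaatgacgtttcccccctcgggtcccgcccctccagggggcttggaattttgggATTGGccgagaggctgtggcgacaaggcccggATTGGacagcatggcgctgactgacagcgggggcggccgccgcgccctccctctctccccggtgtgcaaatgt
TOP2A held 4 such matches, starting 244, 160, 93 and 53 bases before the start, and TOP2B held 2, at 105 and 73 bases before it. All 6 were in the reverse orientation. Of 35116 RefSeq windows of this length, 32.0% held at least 1 match on either strand, 9.41% at least 2 and 0.832% at least 4. A second RefSeq start of TOP2B, 535 bases away, had 0 matches.

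Among the other members the pentamer was found beside fold changes of either sign. NME1, which rose, held 1 match, RRM1 1 and SAMHD1 2, while SLC29A1, DCK and NT5C2 held 0. RRM2 has 2 RefSeq starts, with 1 match nearest the GENCODE start and 3 at the other. TTTGAA (either strand), the letters of the cell cycle homology element, had 2 matches in TOP2A, 1 each in TOP2B, RRM1 and NT5C2, and at least 1 in 13.3% of all windows. TTTNNCGC (either strand), the letters of an E2F site, had 0 matches in the windows of all members and at least 1 in 5.92% of all windows. These matches describe letters and are not shown to be bound sites.

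**Figure D2:**
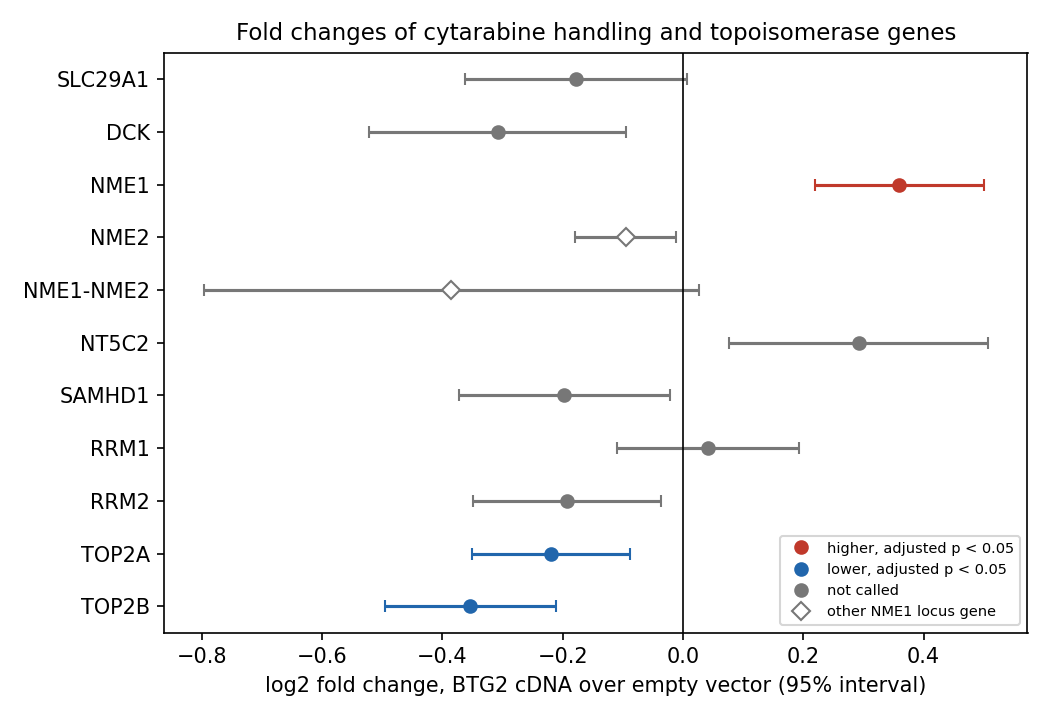
Points are log2 fold changes of BTG2 cDNA over empty vector and bars are 95% intervals from the authors' standard errors; open diamonds are the NME1 neighbours NME2 and NME1-NME2, which are not members. NME1 lies to the right of zero at 0.36, and TOP2A and TOP2B to the left at -0.22 and -0.35. The intervals of SLC29A1, RRM1 and NME1-NME2 reach across zero.

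With short fragments, longer transcripts give more reads, and levels between genes can be set side by side only per length. With full-length reads they do not, and the mean counts themselves would be compared. The sources used here do not settle which kind applies, and the 2 orders differ. By mean count TOP2A (1428) and TOP2B (1223) led, before NME1 (1167), RRM1 (907), RRM2 (827) and SLC29A1 (689). Per kb of the longest coding transcript, NME1 led with a mean of 1184 normalized counts, at the 94.9th percentile of the 10488 genes with a length. SLC29A1 (296 per kb) and RRM1 (295 per kb) followed. TOP2A stood at 248 per kb, TOP2B at 228 per kb and RRM2 at 225 per kb. DCK had 178 per kb, NT5C2 135 per kb and SAMHD1 124 per kb, the lowest of the members and still near the 70.0th percentile. NME2, no member, stood at 12007 per kb. No spread between libraries was available for these levels, so neighbours in either order cannot be told apart.

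**Figure D3:**
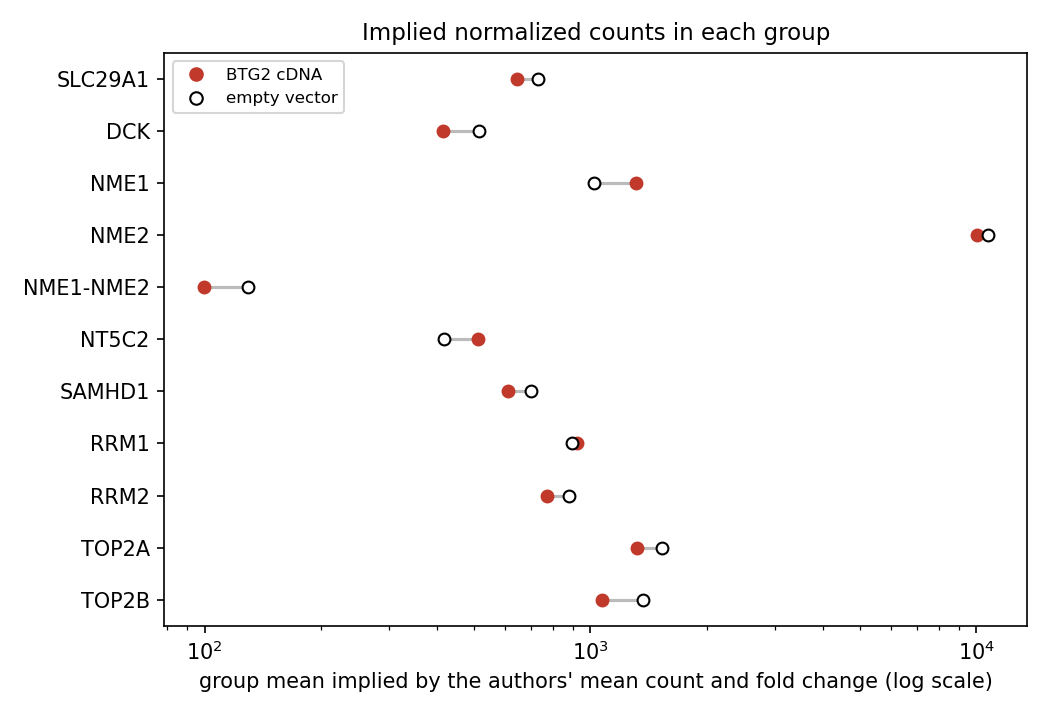
Filled red points are the normalized counts implied for the BTG2 libraries and open points those implied for the empty vector libraries (horizontal, log scale), by gene, with no error since values of single libraries were not analysed. NME1 and NT5C2 have the BTG2 point to the right, and for RRM1 the points nearly coincide (920 with BTG2, 894 with the empty vector).

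Genes that share these pathways were called about as often as genes in general, a comparison that was not matched for mean count. Outside the members, 101 of 109 listed genes of nucleotide metabolism, topoisomerase repair, replication and drug handling had a row. Of these, 5 fell and 3 rose, beside the 8.11% of all genes that were called. Their median log2 fold change was -0.07, against a median of 0.00 over all genes. Genes in the members' range of mean count had 16.1% called and a median of -0.05. The listed genes lay both inside and outside that range, and their rate against genes of like abundance was not tested. Among the 16 nucleoside and nucleotide kinases, 2 rose and 0 fell. Besides NME1 this was UCK2 (0.30, SE 0.09, adjusted p = 0.0257 by the authors' deposited table), a uridine-cytidine kinase that activates azacitidine but not cytarabine. CMPK1, the kinase that adds the second phosphate to cytarabine, did not pass, with a log2 fold change of -0.12 (SE 0.08, adjusted p = 0.472) by the authors' deposited table. The 4 nucleoside transporters with a row had 0 calls and 0 with an unadjusted p under 0.05.

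In the list of pyrimidine and thymidylate synthesis, which includes folate enzymes, 2 of 10 genes fell and 0 rose. The counts of this paragraph stand beside 8.11% called over all genes and 16.1% in the members' range of mean count. MTHFD1 and MTHFD2, folate enzymes of the cytosol and the mitochondrion, stood at -0.47 (SE 0.08, adjusted p = 4.44e-07) and -0.29 (SE 0.06, adjusted p = 6.68e-05) by the authors' deposited table. Thymidylate synthase TYMS did not pass, at 0.17 (SE 0.06, adjusted p = 0.0910 by the authors' deposited table). Of 14 nucleotidases, deaminases and triphosphohydrolases only DUT, the dUTPase that keeps uracil out of DNA, passed, at -0.16 (SE 0.05, adjusted p = 0.0431) by the authors' deposited table. DCTD, which deaminates deoxycytidine monophosphate, was at 0.15 (SE 0.11, adjusted p = 0.513) by the authors' deposited table. Among 13 purine genes IMPDH2, the rate-limiting enzyme of guanine nucleotide synthesis, rose by 0.14 (SE 0.04, adjusted p = 0.00519) by the authors' deposited table and 0 fell.

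Of the other topoisomerases 0 were called lower. For this and the counts below, 8.11% of all genes and 16.1% of genes in the members' range of mean count were called. The mitochondrial enzyme TOP1MT rose by 0.28 (SE 0.08, adjusted p = 0.00519) by the authors' deposited table, and TOP1, the camptothecin target, did not pass, at -0.10 (SE 0.10, adjusted p = 0.711). TOP3A and TOP3B were at 0.31 and -0.09 and did not pass in the authors' deposited table. TDP2, which removes topoisomerase II from DNA ends, was at -0.12 (SE 0.09, adjusted p = 0.529), and TDP1 at 0.10, in the authors' deposited table. Of 13 replicative polymerase genes PRIM1, a primase subunit, fell by 0.29 on the log2 scale (SE 0.08, adjusted p = 0.0122) by the authors' deposited table. Of 12 replication checkpoint genes 0 passed the authors' test, and 2 had an unadjusted p under 0.05, beside 2036 of all 11597 genes.

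**Figure D4:**
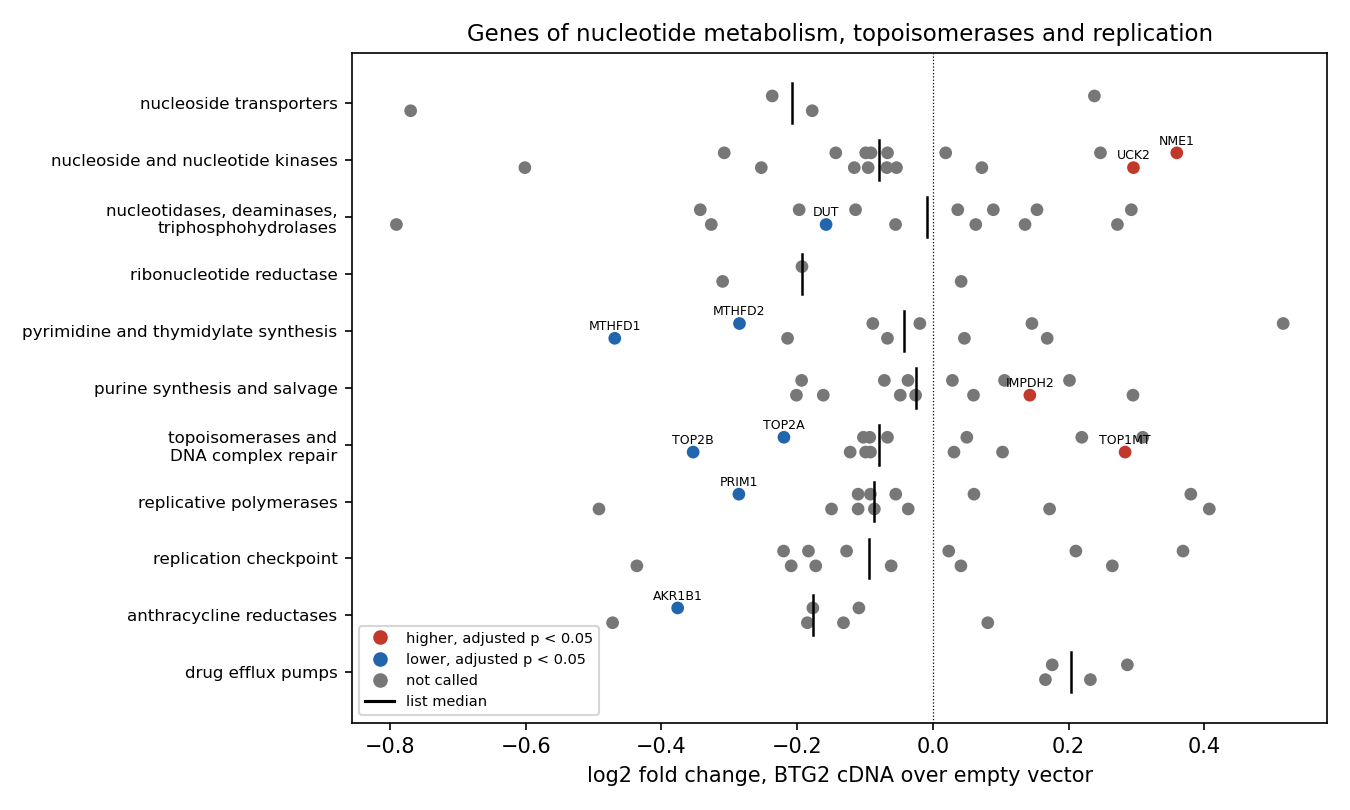
Each point is a gene by its log2 fold change of BTG2 cDNA over empty vector (horizontal) in each list, members included; red and blue points had an adjusted p under 0.05 and are named, and black bars are list medians. Calls lie on both sides of zero among the topoisomerases (TOP1MT at 0.28, TOP2B at -0.35), and the kinases hold 2 higher calls.

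The overexpressed gene and the cell line's markers were checked in the same table. BTG2 had implied means of 5894 normalized counts with the cDNA and 182 with the empty vector, which includes reads of the cDNA itself. Of 12 markers of this leukaemia line 10 had a row, with 2 higher (FLT3 and HOXA9) and 2 lower (LYZ and MPO), beside 8.11% of all genes called. Of 9 lymphoid and erythroid markers 0 had one. PAX5 and FCER2, genes linked to B cells that were not on that list, did have rows. Both were called lower, at log2 fold changes of -9.28 and -1.12 and mean counts of 53.1 and 158.3. The PAX5 value implies a BTG2 group mean near the floor, so its size is uncertain. Values as extreme occurred in both directions, such as APOO (10.6) and POMK (-10.3). Likeness of these genes' patterns across samples could not be measured from 1 comparison.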

How the data were processed

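Poly(A) RNA of 2 BTG2 and 2 empty vector libraries was compared by the authors, and the data analysed here are their deposited table of that 1 comparison. Per the labels' protocols a directional kit and paired reads were used, whereas the series title speaks of long reads. The sources used here do not settle which kind gave the values. The tool minimap2 and the build hg38 are named in the submitters' processing notes. Per the file headers, the mean column is a signal, each gene's normalized count averaged over all libraries. Fold changes and standard errors are log2 values deposited by the authors. The deposited statistic is a score, the fold change over its standard error, and the deposited p-value is adjusted by Benjamini-Hochberg over all listed genes (checked within 1.48e-06). The test program, any filter and any use of strand in counting: not given in the sources used here, so values of overlapping genes are uncertain. Depth per library is unknown, and only the standard errors carry precision.

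Genes were called at an adjusted p under 0.05, with no test added. Group means were computed from the mean and fold change for groups of 2 and 2. The members and lists were chosen with earlier results of these data known, and 2 list genes are not reported here. Named genes are all members, their listed copies and overlapping genes, BTG2, and the called genes of each list (at most 4 by absolute score). Other genes named were chosen after their values were seen. These were CMPK1, DCTD, TYMS, TOP1, TOP3A, TOP3B, TDP1, TDP2, RRM2B, CBR3, NQO1, PAX5, FCER2, APOO, POMK, ABC pumps and single proliferation markers. The alternatives were other adjusted p limits (0.01 and 0.1), an absolute log2 fold change of at least 0.5, abundant genes alone, recentring on the median abundant gene (a shift of -0.03), scores divided by their central spread, and Bonferroni adjustment. The calling step was tested on simulated data. GENCODE release 29 gave positions and lengths, and its identifiers are older versions than those of the table. RefSeq promoters on GRCh38.p14 matched 10 of 10 members. Python 3.11.15 was used with numpy 2.4.6, pandas 2.3.3, scipy 1.17.1 and matplotlib 3.10.9.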

Additional observations from a re-analysis of the deposited data

How the results depend on the processing

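Of the 7 alternatives run on the table, 6 keep the deposited fold changes, and recentring shifts all of them by the same small amount, so they bear on the calls and not on the directions. Against 2 members called lower, 1 was called at a limit of 0.01, with divided scores and with Bonferroni adjustment, in each case without TOP2A, 0 with a minimum absolute log2 fold change of 0.5, and 3 at a limit of 0.1 and among abundant genes alone, where DCK joined. Against 1 member called higher, 2 were called at a limit of 0.1, among abundant genes alone and after recentring, where NT5C2 joined NME1, and 0 with the minimum fold change. Of the related genes, 5 lower and 3 higher became 3 and 2 at a limit of 0.01, 0 and 0 with the minimum fold change, 2 and 0 with divided scores, and 2 and 0 with Bonferroni adjustment, 8 and 6 at a limit of 0.1, and 4 and 4 after recentring. Over all genes, 422 higher and 518 lower became 281 and 341 at 0.01, 222 and 166 with the minimum fold change, 209 and 262 with divided scores, and 131 and 181 with Bonferroni adjustment, while recentring turned the balance to 500 higher and 433 lower. Apart from recentring, these settings narrow or widen the threshold, or change which genes are adjusted over, by construction. The sum of NME1, NME2 and NME1-NME2, a choice made after seeing the data, had a log2 ratio of -0.053. NME2 supplied most of its counts, so the sum is not another value for NME1, whose deposited log2 fold change was 0.36.

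No paired analysis was possible because the table holds no values per library, and replicates were not left out in turn for the same reason. Standard errors of the members, from 0.07 to 0.11 on the log2 scale, set the size of change that the test calls, and a gene that missed the threshold is not shown to be equal in both groups.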

Other observations

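Drug efflux and anthracycline metabolism genes were also measured. The 4 efflux pump genes with a row, ABCC1, ABCC4, ABCC5 and ABCC10, had positive log2 fold changes from 0.17 to 0.29, and 0 passed the authors' test, with 0 at an unadjusted p under 0.05. Their mean counts were low, from 58.9 to 141.5, with standard errors from 0.23 to 0.35. Of 7 reductase genes known to act on anthracyclines or quinones, AKR1B1, an aldose reductase, fell, with a log2 fold change of -0.38 (SE 0.10, adjusted p = 0.00445) by the authors' deposited table. The others did not pass, and their values ran from -0.47 for CBR3, a carbonyl reductase, to 0.08 for NQO1 in the authors' deposited table. Over all genes 8.11% were called, and 16.1% in the members' range of mean count. Of the 7, 4 had an unadjusted p under 0.05 in the authors' test. So did 2036 of all 11597 genes, and 520 of the 1673 genes in the members' range of mean count.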
